A study of Mus musculus with 6 samples.

Results

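The genes described here make fatty acids, lengthen and desaturate them, attach them to coenzyme A, build them into triglyceride and release them again, together with transcription factors of these steps and the proteins that bind fatty acids or coat lipid droplets. The module is a list of 39 genes, and its members were found as the probe sets annotated to exactly 1 of these gene symbols. Of the 39 genes, 36 had such a probe set, 66 probe sets in all, out of 12393 genes so named on the array. No probe set was listed under 1 symbol for Acsl1, Acsl3 or Agpat2, which were not analysed here. Acaca, Acacb and Elovl3 lay among the dimmest 30% of probe sets, below a log2 value of 6.09, and were not tested, which left 33 members among 9258 genes tested.

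RNA was measured on 6 Affymetrix arrays, 1 for each tumour. The Bptf KD group was 3 tumours of 4T1 cells, which come from a mouse mammary carcinoma, after a retrovirus had brought in short hairpin RNAs against Bptf, the largest subunit of the chromatin remodelling complex NURF. The control group was 3 tumours grown from control 4T1 cells. The hosts of both groups were described as Ifrg2r -/- (NSG) mice. They received 10000 cells in a mammary fat pad, and the tumours were taken 21 days later. These hosts lack mature lymphocytes but keep the fat, stroma and myeloid cells of the fat pad. The sources used here do not give the hairpin sequences, what the control cells carried, whether the cells were a clone or a pool, or the age of the mice.

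Fatty acid synthesis starts in the cytosol, where citrate is cut into acetyl-CoA, acetyl-CoA is carboxylated to malonyl-CoA, and fatty acid synthase joins these units into palmitate. Elongases and desaturases then modify the chain, acyl-CoA synthetases activate it, and acyltransferases and phosphatases assemble it into triglyceride, which lipases take apart in order. Many tumour cells run this synthesis themselves, while in the mammary gland both the fat pad and the secretory epithelium are known for it.

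The tumour labelled control 2 stood apart from the rest. Its values correlated with those of the other controls at 0.934 and 0.939 across genes, which are not independent replicates, whereas the other correlations within a group were 0.984 to 0.988. Its skeletal muscle marker list averaged 11.27, against 6.03 to 9.15 in the Bptf KD tumours and 6.17 and 8.68 in controls 3 and 1. For Actb, the log2 value of the control probe set at the 3-prime end minus that at the 5-prime end, which reads RNA integrity, was 1.23 in this tumour and 0.76 to 1.05 in the others. The same reading for Gapdh hardly set it apart, at 0.06 in this tumour and -0.08 to 0.04 in the others. Bptf itself read 9.60, 9.56 and 9.99 in the Bptf KD tumours and 10.69, 9.77 and 10.59 in controls 1, 2 and 3 on its brightest probe set, a difference of -0.63 that missed the threshold of 0.05 (limma adjusted p = 0.372). On a second probe set it read 8.70, 8.37 and 9.15 in the Bptf KD tumours, against 10.30, 7.59 and 10.04 in the controls, so the tumour labelled control 2 lay below every Bptf KD tumour there. It also did so on both remaining probe sets, with 6.88 where the Bptf KD tumours read 7.27 to 7.37, and 5.41 where they read 6.37 to 6.53, and thus on 3 of the 4 probe sets. Without that tumour the difference on the brightest probe set was -0.92 (limma adjusted p = 0.0306), where 2.52% of all genes were called lower. It was the lowest control there, so leaving it out had to widen the difference, and this call is no separate support for the knockdown. Results below are therefore given with it and, for many of the genes, also without it.

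Among the 33 tested members, 2 fell in Bptf KD tumours and 0 rose (limma, Benjamini-Hochberg adjustment over all genes). Over all genes tested, 0.659% were called lower and 0.151% higher. The 2 genes were Scd1, the desaturase that makes monounsaturated fatty acids, and Dgat2, which adds the last acyl chain of a triglyceride. At an unadjusted p under 0.05 there were 8 members lower and 1 higher, beside 5.82% and 7.65% of all genes. All 3 Bptf KD tumours lay below all 3 controls in 12 of the 33 members, where 8.18% of all genes did so, and above them in 1 member, where 11.8% of all genes did so. One of the 12, Pparg, passed the filter on dim values only through its controls, so it had to differ to be tested. Differences ran from -3.52 to 0.58, with a median of -0.15 beside 0.06 for all genes tested, and of -0.145 for all 36 members beside 0.0233 without the filter. Differences throughout are log2 Bptf KD minus control.

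**Figure D1:**
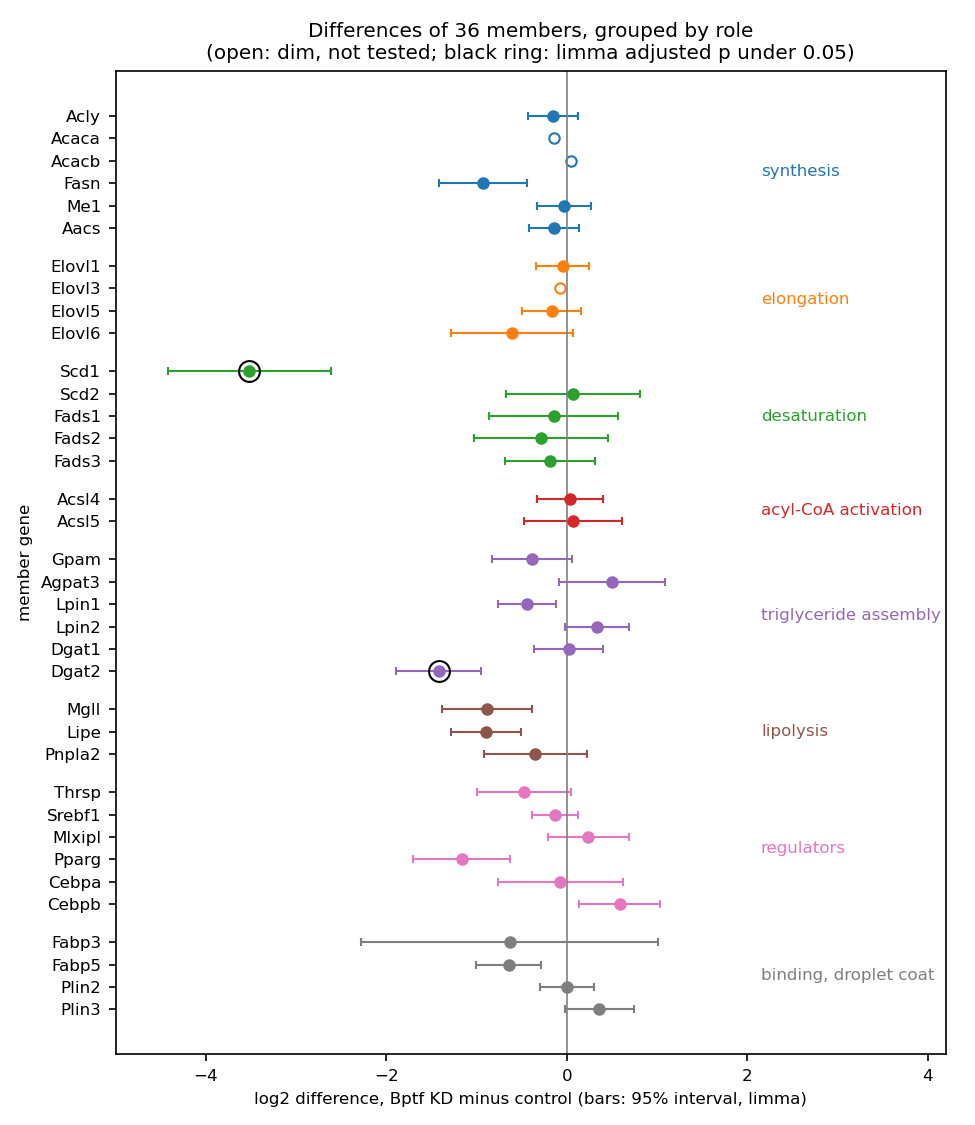
Difference of each of the 36 members with a probe set, in log2 units on the horizontal axis, grouped by role down the page. Bars are 95% intervals from limma, open points are the 3 dim members that were not tested, and black rings mark Scd1 at -3.52 and Dgat2 at -1.42, which lie apart from the members of their own roles.

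Of the genes of fatty acid synthesis none passed the threshold, and fatty acid synthase itself had the largest difference among the 4 tested. Limma called 0 of the 4, with 1 lower at an unadjusted p under 0.05, beside 5.82% of all genes. Fasn, which builds palmitate, read 9.26, 8.72 and 9.27 in Bptf KD tumours, against 10.14, 9.72 and 10.17 in controls. The groups did not overlap, and the lowest value of each group was that of replicate 2. The means were 9.08 ± 0.31 in Bptf KD tumours and 10.01 ± 0.25 in controls (SD, n = 3 each), a difference of -0.93 (95% interval -1.41 to -0.44; limma adjusted p = 0.118). Without the tumour labelled control 2, the lowest control, the difference was -1.07 and passed (limma adjusted p = 0.0328).

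The steps around Fasn differed less. Acly, which makes cytosolic acetyl-CoA from citrate, differed by -0.15 (95% interval -0.43 to 0.12) on its brightest probe set and by 0.10 and -0.0067 on the next ones. Me1, the malic enzyme that supplies NADPH, differed by -0.03 (95% interval -0.33 to 0.27) on its brightest probe set. On its second one the groups did not overlap, with a difference of -0.26 (limma adjusted p = 0.493 among single probe sets). Aacs, which activates acetoacetate for lipid synthesis, differed by -0.14. The acetyl-CoA carboxylases were dim in both groups: Acaca read 4.84 to 5.05 in Bptf KD tumours and 4.85 to 5.30 in controls, and Acacb read 5.79 to 5.97 in Bptf KD tumours and 5.81 to 5.87 in controls, so no level of this committed step could be read from these probe sets.

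Elongases gave no call (limma, 0 of the 3 tested, with 0 at an unadjusted p under 0.05). Elovl6, which lengthens palmitate and palmitoleate, read 9.32, 8.60 and 9.10 in Bptf KD tumours, against 9.31, 9.38 and 10.16 in controls. The groups overlapped, and control 3 alone lay well above the rest. The difference of -0.61 (95% interval -1.28 to 0.06; limma adjusted p = 0.423) was almost the same on the second probe set, at -0.60. Elovl5, which lengthens polyunsaturated chains, differed by -0.17, and Elovl1, which makes very long saturated chains, by -0.05. Elovl3, an elongase known from skin and brown fat, was dim, at 5.0 to 5.28 in Bptf KD tumours and 5.01 to 5.56 in controls.

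Desaturation held the largest change of the module, and it was that of a single enzyme. Scd1 read 8.88, 10.39 and 9.43 in Bptf KD tumours, against 13.27, 13.27 and 12.72 in controls. The groups were far apart, and Bptf KD 2 was the highest of its group. The means were 9.57 ± 0.76 in Bptf KD tumours and 13.09 ± 0.32 in controls (SD, n = 3 each), so that Scd1 fell 11.5-fold (difference -3.52, SE 0.38; limma adjusted p = 0.0166). A second, dimmer probe set of Scd1 read 6.42, 6.52 and 6.18 in Bptf KD tumours, against 7.95, 8.64 and 7.99 in controls. Here the fall was 3.53-fold (difference -1.82, limma adjusted p = 0.0297 in a fit of 14588 single probe sets, of which 0.247% were called lower and 0.0137% higher), so the direction was shared and the size depended on the probe set. The tumour labelled control 2 did not decide this result, since without it the difference was -3.43 (limma adjusted p = 0.0135). The call ended without Bptf KD 1 (limma adjusted p = 0.0620), without Bptf KD 3 (0.111) or without control 3 (0.0527), with differences of -3.18, -3.45 and -3.70.

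Scd2, the close relative of Scd1 that makes the same kind of bond, read 12.51, 12.32 and 12.52 in Bptf KD tumours, against 12.58, 11.65 and 12.92 in controls. Bptf KD tumours lay within the range of the controls, whose lowest value was that of the tumour labelled control 2. The difference was 0.07 (95% interval -0.67 to 0.81) on this probe set, and -0.07 and 0.20 on the others. Without the tumour labelled control 2 it was -0.30 (limma adjusted p = 0.222). The contrast between Scd1 and Scd2 was not itself tested.

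The front-end desaturases of polyunsaturated fatty acids gave no call. Fads1 differed by -0.15 (95% interval -0.86 to 0.57) and Fads2 by -0.29 (95% interval -1.03 to 0.46). Fads1 was lowest of all 6 tumours in the tumour labelled control 2, at 8.40 against 8.81 to 9.19 in Bptf KD tumours and 9.36 and 9.53 in controls 1 and 3. Without it, Fads1 and Fads2 differed by -0.495 and -0.49 (limma adjusted p = 0.101 and 0.326). Fads3, which desaturates sphingoid bases, differed by -0.19, and by 0.02 without that tumour.

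Acyl-CoA activation could be read for Acsl4 and Acsl5 only, and neither passed (limma, 0 of 2, with 0 at an unadjusted p under 0.05). Acsl5, an acyl-CoA synthetase abundant in gut and liver, read 11.37, 10.95 and 11.41 in Bptf KD tumours, against 11.27, 10.75 and 11.51 in controls. The groups overlapped fully, with replicate 2 lowest in each (difference 0.07, 95% interval -0.48 to 0.61). Acsl4, which prefers arachidonate, differed by 0.04 (95% interval -0.33 to 0.40) on its brightest probe set and by 0.21 on another. The dimmest Acsl4 probe set gave 9.64, 9.66 and 9.37 in Bptf KD tumours, against 9.04, 8.86 and 8.68 in controls. On it the groups did not overlap, and the difference of 0.70 did not pass in the fit on single probe sets (limma adjusted p = 0.133). The transcripts of Acsl4 that each probe set reads are not known here.

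**Figure D2:**
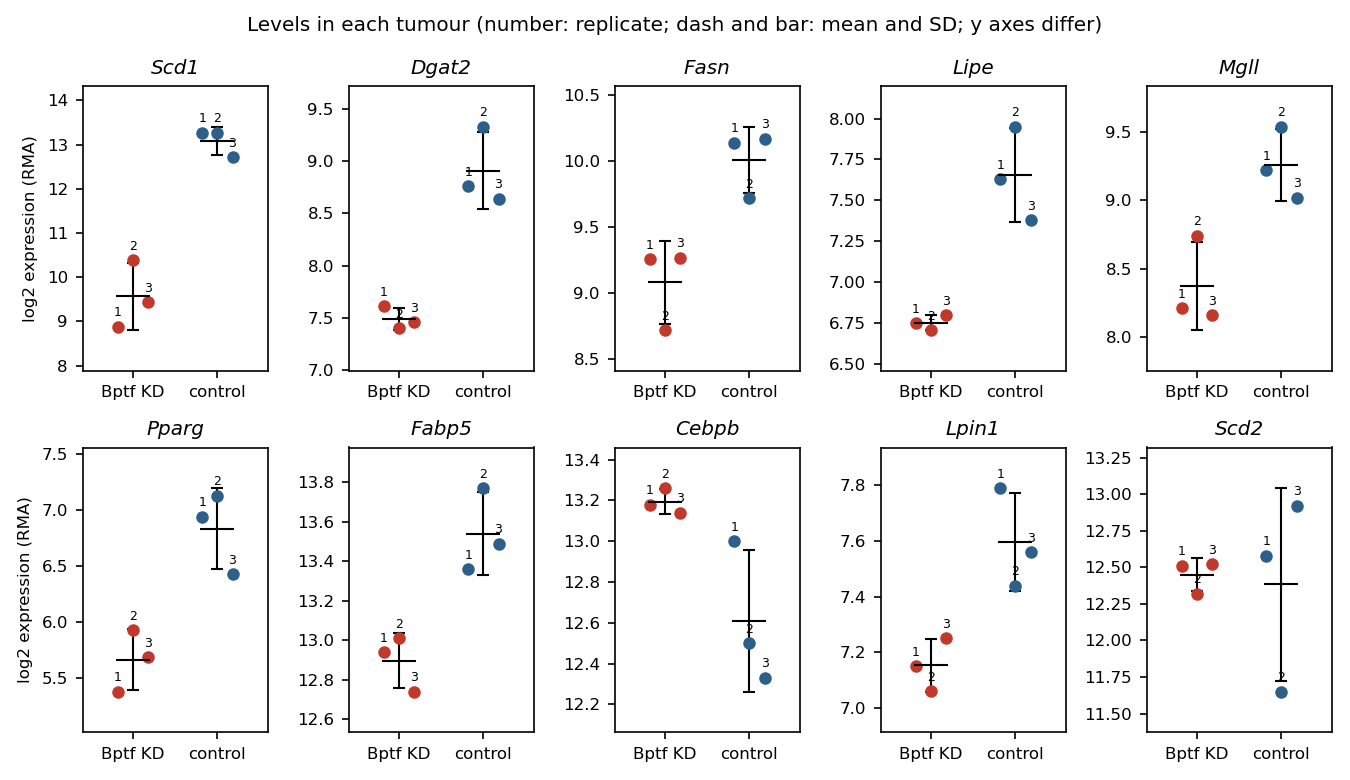
Log2 expression of 10 members in each tumour, with Bptf KD on the left and control on the right of each panel. Points are tumours numbered by replicate, dashes and bars are the mean and SD of 3 tumours. Scd1 and Dgat2 leave a wide gap between the groups, Scd2 overlaps, and Cebpb lies higher in all 3 Bptf KD tumours.

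Triglyceride assembly held the other call. Dgat2 read 7.61, 7.40 and 7.46 in Bptf KD tumours, against 8.76, 9.33 and 8.64 in controls. The groups did not overlap, and the tumour labelled control 2 was the highest. The means were 7.49 ± 0.11 in Bptf KD tumours and 8.91 ± 0.37 in controls (SD, n = 3 each), a 2.68-fold fall (difference -1.42, SE 0.20; limma adjusted p = 0.0436). Without the tumour labelled control 2 the difference was -1.21 (limma adjusted p = 0.00613). The second Dgat2 probe set read 7.46, 7.21 and 7.09 in Bptf KD tumours, against 7.68, 7.99 and 7.83 in controls, a smaller, not overlapping difference of -0.58 (limma adjusted p = 0.196 among single probe sets). The call of Dgat2 ended with the mean of both probe sets (limma adjusted p = 0.0505), in the fit on single probe sets for its brightest one (0.0576), and also when any tumour other than the one labelled control 2 was left out (differences -1.56 to -1.38, limma adjusted p = 0.0605 to 0.182).

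Dgat1, the unrelated enzyme that catalyses the same last step, differed by 0.02 (95% interval -0.36 to 0.40), with 8.33, 8.44 and 8.50 in Bptf KD tumours and 8.44, 8.65 and 8.12 in controls. The difference between Dgat1 and Dgat2 was not itself tested. Earlier steps did not pass and did not share a sign. Gpam, the mitochondrial acyltransferase that begins glycerolipid synthesis, differed by -0.38 (95% interval -0.83 to 0.06) and lay lower in all 3 Bptf KD tumours. Its highest control was the tumour labelled control 2, and without that tumour the difference was -0.19 (limma adjusted p = 0.312). Agpat3, which adds the next acyl chain, differed by 0.50 (95% interval -0.09 to 1.09). On leaving out the tumour labelled control 2, the Agpat3 difference was 0.75 (limma adjusted p = 0.0546).

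The lipins, phosphatases that turn phosphatidate into diacylglycerol, differed in opposite directions, and neither passed. Lpin1 read 7.15, 7.06 and 7.25 in Bptf KD tumours, against 7.79, 7.44 and 7.56 in controls, all of which lay above the Bptf KD tumours (difference -0.44, limma adjusted p = 0.235). Lpin2 read 9.89, 10.02 and 9.78 in Bptf KD tumours, against 9.81, 9.49 and 9.40 in controls, with control 1 inside the range of the Bptf KD tumours (difference 0.33, limma adjusted p = 0.410). Its other probe sets gave 0.45 and 0.49, without overlap between the groups. Without the tumour labelled control 2 the differences were -0.52 for Lpin1 and 0.29 for Lpin2.

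The lipases that release fatty acids from triglyceride had negative differences in all 3 cases and gave no call. Limma called 0 of 3, with 2 lower at an unadjusted p under 0.05, beside 5.82% of all genes. Lipe, hormone-sensitive lipase, which cuts diacylglycerol, read 6.75, 6.71 and 6.80 in Bptf KD tumours, against 7.63, 7.95 and 7.38 in controls. The Bptf KD tumours lay close together and below every control. The means were 6.75 ± 0.05 in Bptf KD tumours and 7.65 ± 0.29 in controls (SD, n = 3 each), a difference of -0.90 (limma adjusted p = 0.0704). Without the tumour labelled control 2, the highest control, the difference was smaller, at -0.75, and passed (limma adjusted p = 0.0263).

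Mgll, which cuts monoacylglycerol, the final step, read 8.21, 8.74 and 8.16 in Bptf KD tumours, against 9.22, 9.54 and 9.02 in controls. The groups did not overlap on this probe set (difference -0.89, limma adjusted p = 0.139) or on the next brightest ones (differences -0.81 and -0.65), and a dim one, not tested, differed by 0.24. Pnpla2, the lipase of the first cut, read 8.24, 8.24 and 8.36 in Bptf KD tumours, against 9.07, 8.11 and 8.71 in controls. The tumour labelled control 2 lay below every Bptf KD tumour, and the difference was -0.35 with it and -0.61 without it (limma adjusted p = 0.612 and 0.0606).

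Regulators of lipid synthesis and of fat cell formation did not move as one group. Limma called 0 of the 6, with 1 lower and 1 higher at an unadjusted p under 0.05, beside 5.82% and 7.65% of all genes. Pparg, the nuclear receptor that drives fat cell formation, read 5.38, 5.93 and 5.69 in Bptf KD tumours, against 6.94, 7.13 and 6.43 in controls. Every Bptf KD value lay below the dim level of 6.09 and every control above it, so the size of the difference of -1.17 is uncertain (limma adjusted p = 0.0839; without the tumour labelled control 2, -1.02 and 0.0487). Cebpa, which acts with Pparg in mature fat cells, read 8.31, 8.58 and 8.66 in Bptf KD tumours, against 8.40, 9.25 and 8.12 in controls. The groups overlapped, and its difference of -0.07 was 0.26 without the tumour labelled control 2, the highest of the 6. Cebpb, an early factor of fat cell formation that also acts in inflammation, read 13.18, 13.26 and 13.14 in Bptf KD tumours, against 13.00, 12.50 and 12.33 in controls. Taking each member by its brightest probe set, it was the only one whose Bptf KD tumours all lay above the controls, by 0.58, and its other probe set gave 0.78 (limma adjusted p = 0.254 for the gene).

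The factors that switch on lipogenic enzymes showed small differences. Srebf1, the sterol-responsive factor that drives Fasn and Scd1, read 9.71, 9.78 and 9.80 in Bptf KD tumours, against 9.93, 9.86 and 9.90 in controls, a narrow gap of -0.13 (95% interval -0.39 to 0.12; limma adjusted p = 0.665). The probe set does not report how much of the protein is processed to its active form. Mlxipl, the carbohydrate-responsive factor, differed by 0.24 (95% interval -0.21 to 0.69). Thrsp, a small nuclear protein tied to lipogenesis, depended on the probe set. The brighter one read 6.55, 6.61 and 6.73 in Bptf KD tumours, against 6.98, 7.59 and 6.76 in controls, a difference of -0.48 (limma adjusted p = 0.415). Its highest control was the tumour labelled control 2, and without that tumour the difference was -0.24 (limma adjusted p = 0.253). The dim one, left out by the filter, read 4.27, 4.58 and 3.92 in Bptf KD tumours, against 6.88, 7.74 and 6.38 in controls, a difference of -2.74 with no test of its own. The mean of both probe sets differed by -1.61 (limma adjusted p = 0.0568). The groups did not overlap on either, and which of the probe sets reads Thrsp better is not known here.

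**Figure D3:**
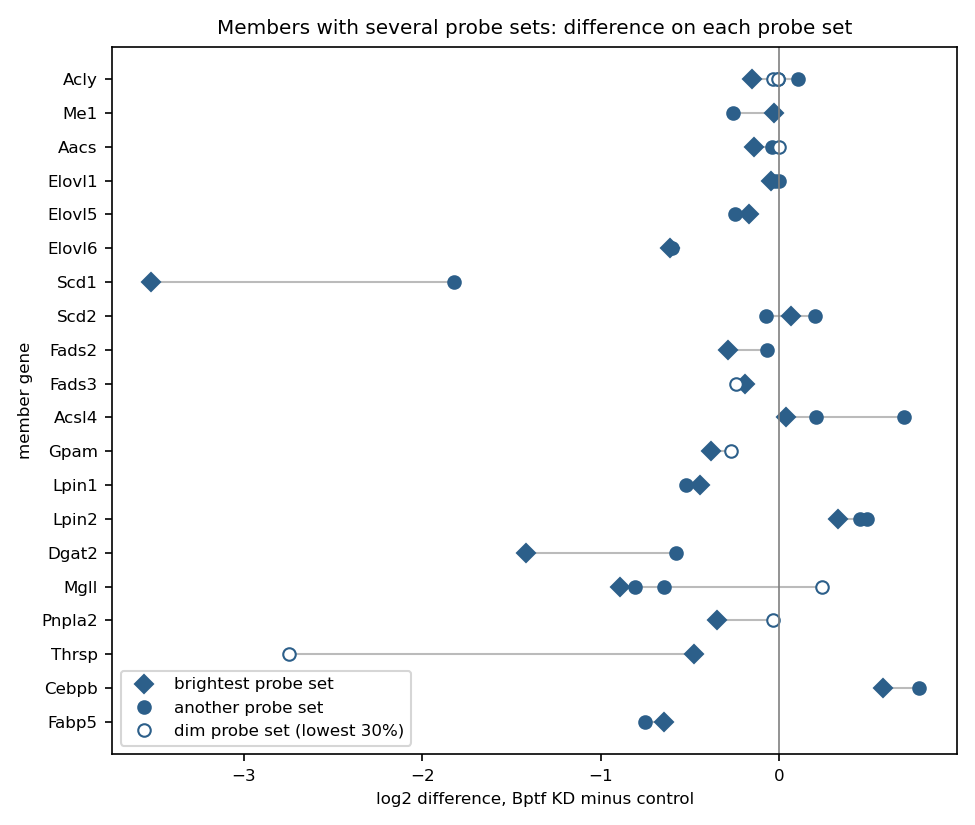
Log2 difference on each probe set of the 20 members that have several, with diamonds for the brightest, filled points for others and open points for dim ones. Probe sets of Elovl6, Fabp5, Lpin1 and Lpin2 lie close together, while those of Scd1 (-3.52 and -1.82), Dgat2 (-1.42 and -0.58) and Thrsp (-0.48 and -2.74) lie apart on the same side of 0.

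Of the 20 members with several probe sets, 16 had more than 1 that passed the filter on dim values, and in 14 of these no differences were of opposite sign, although 1 of those of Elovl1 was 0. Acly and Scd2 had differences of both signs, which ran from -0.15 to 0.20.

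Proteins that bind fatty acids or coat droplets gave no call. Limma called 0 of 4, with 1 lower at an unadjusted p under 0.05, beside 5.82% of all genes. Fabp5, the epidermal fatty acid binding protein, read 12.94, 13.01 and 12.74 in Bptf KD tumours, against 13.36, 13.77 and 13.49 in controls. The groups did not overlap on this probe set (difference -0.64, limma adjusted p = 0.139) or on the second (-0.75). Plin2, the droplet coat found in most cell types, read 11.86, 11.88 and 11.85 in Bptf KD tumours, against 12.02, 11.86 and 11.70 in controls. Its difference was 0.00333 (95% interval -0.29 to 0.30), and the groups overlapped. Plin3, a coat of small droplets, differed by 0.36 (95% interval -0.02 to 0.74). Fabp3, the form of heart and skeletal muscle, read 6.77, 6.42 and 5.92 in Bptf KD tumours, against 6.30, 8.72 and 5.99 in controls. Only the tumour labelled control 2, which also held the highest muscle markers, stood out. The difference of -0.63 was 0.23 without that tumour (limma adjusted p = 0.763 and 0.594).

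**Figure D4:**
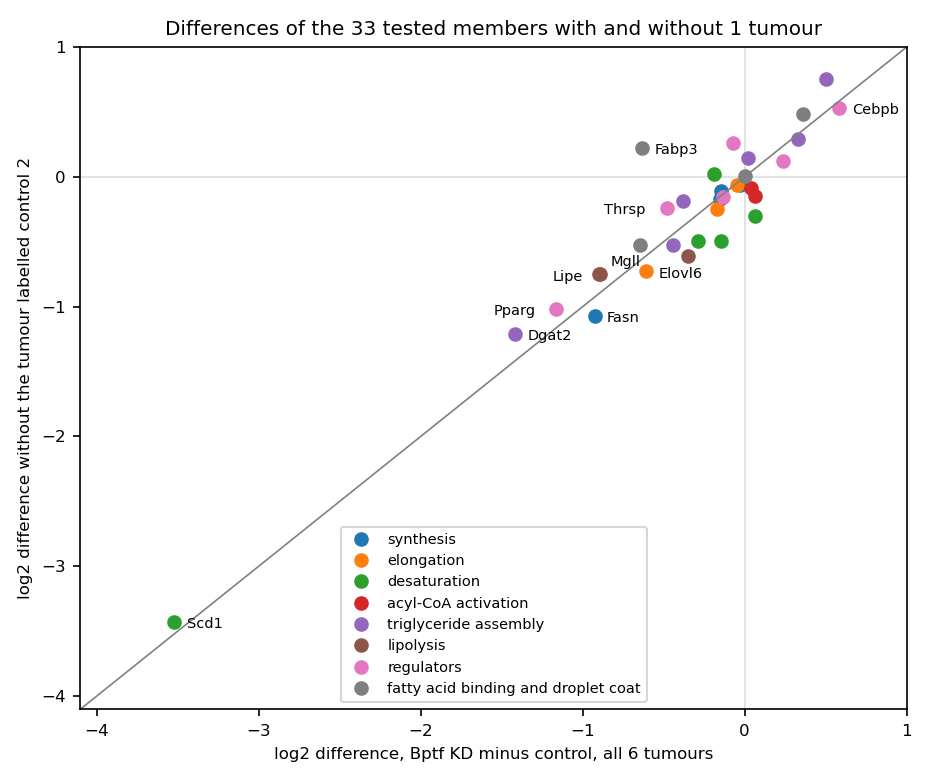
Log2 differences of the 33 tested members with all 6 tumours (horizontal axis) and without the tumour labelled control 2 (vertical axis), coloured by role. The line marks equal values. Scd1 and Dgat2 stay near it at the lower left, and Fabp3 lies at 0.23 without that tumour, against -0.63 with all.

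Leaving out the tumour labelled control 2 raised the number of members called lower to 5, adding Fasn, Lipe and Pparg to Scd1 and Dgat2, while 2.52% of all genes were then called lower. Of the added members, Pparg passed the filter on dim values only through its controls, so it had to differ to be tested. For Fasn the tumour left out was the lowest control, so leaving it out had to widen the difference. No member was called higher (limma, 0 of 33), where 1.93% of all genes were. The sign of the difference was kept in 27 of the 33 members, and Fabp3 was the 1 member whose fold moved by more than 1.5 times. Keeping all tumours but weighting each array by its fit (limma array weights), 11 members were called lower and 4 higher, where 7.45% of all genes were lower and 10.7% higher. With the replicate number as a block, 4 were called lower and 0 higher, where 0.994% of all genes were lower and 0.162% higher.

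RefSeq promoter windows, 250 bases before to 50 after a start site on GRCm38.p6, were at hand for 32 of the 39 members (45 windows), and not for Scd1 or Dgat2. They were searched on both strands for CCAAT, the box bound by the factor NF-Y that works with Srebf1, for CACGTG, an E-box, and for TCACCCCAC, the core of a sterol regulatory element. CCAAT was found in 20 of the 45 windows (44.4%, beside 37.4% of all promoter windows), CACGTG in 6 (13.3%, beside 7.15%) and TCACCCCAC in 1, that of Acsl1 (2.22%, beside 0.551%). Windows are shown for Fasn, Lipe and Pparg, the members that joined Scd1 and Dgat2 among the calls without the tumour labelled control 2, 1 for each gene, read on the gene's strand with matches in capitals. That of Fasn (chr11:120824498-120824797, minus strand) holds CCAAT on the reverse strand at -90 and -59 and on the forward strand at -62, the last 2 overlapping. The upstream start of Lipe (chr7:25395938-25396237, minus strand) holds CACGTG at -155, and the downstream start of Pparg (chr6:115421816-115422115, plus strand) holds CCAAT at -144 and -22. These are the windows with the most matches: the other Lipe window holds none of the motifs, and of the other Pparg windows 1 holds none and 1 holds CCAAT once. Positions count from the start site, and a match is a description of letters only.
Fasn: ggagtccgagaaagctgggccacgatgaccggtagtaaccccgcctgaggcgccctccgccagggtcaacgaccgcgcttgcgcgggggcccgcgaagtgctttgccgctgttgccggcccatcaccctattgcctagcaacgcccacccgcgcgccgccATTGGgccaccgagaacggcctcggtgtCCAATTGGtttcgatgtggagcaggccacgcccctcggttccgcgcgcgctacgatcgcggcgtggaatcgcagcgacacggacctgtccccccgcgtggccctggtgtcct
Lipe: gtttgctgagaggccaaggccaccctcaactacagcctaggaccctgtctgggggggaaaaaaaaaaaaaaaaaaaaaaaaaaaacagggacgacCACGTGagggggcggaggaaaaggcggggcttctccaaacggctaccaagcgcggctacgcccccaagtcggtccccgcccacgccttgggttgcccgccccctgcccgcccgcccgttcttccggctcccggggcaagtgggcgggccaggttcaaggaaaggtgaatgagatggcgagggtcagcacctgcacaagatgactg
Pparg: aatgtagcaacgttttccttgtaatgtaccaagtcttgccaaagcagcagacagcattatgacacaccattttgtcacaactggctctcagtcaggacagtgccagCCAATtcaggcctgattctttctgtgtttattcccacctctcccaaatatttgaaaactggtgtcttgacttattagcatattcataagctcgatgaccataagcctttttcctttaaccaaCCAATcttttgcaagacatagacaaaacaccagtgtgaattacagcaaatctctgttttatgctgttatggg

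Markers of fat cells also differed between the groups. Of 12 adipocyte markers 9 had a probe set and 8 were tested, and 6 of these fell (limma), where 0.659% of all genes did. Among them were Fabp4 (-2.85, limma adjusted p = 0.00936) and Retn (-2.62, limma adjusted p = 0.00936). Cidec, which fell, and Lep, which was not called, passed the filter on dim values only through their controls, so they had to differ to be tested. The mean of the 9 measured markers was 6.82, 7.79 and 7.34 in Bptf KD tumours, against 10.05, 10.68 and 9.81 in controls. Bptf KD 2 was the highest of its group both for this mean and for Scd1 (10.39), and Bptf KD 1 the lowest for both (8.88 for Scd1), whereas Dgat2, at 7.61, was highest in Bptf KD 1. No association was computed for these orders. Adipoq, the fat cell hormone, read 4.72, 9.67 and 8.0 in Bptf KD tumours, against 12.01, 12.95 and 11.38 in controls. It lay below the dim level of 6.09 in Bptf KD 1 alone, and it did not pass (difference -4.65, limma adjusted p = 0.160). All 8 fibroblast markers had negative differences and 4 fell (limma), again beside 0.659% of all genes. Their list mean was 10.47 to 10.82 in Bptf KD tumours and 11.84 to 12.02 in controls. The part of either cell type in the fall of Scd1 and Dgat2 was not tested. In such pieces of tissue, fewer cells of a type and less RNA per cell cannot be told apart.

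Lists of other cell types were read in the same way. The 8 epithelial tumour markers averaged 11.18 to 11.26 in Bptf KD tumours and 10.11 to 10.98 in controls. Limma called 0 of them, with 3 higher at an unadjusted p under 0.05, beside 7.65% of all genes. The 7 macrophage markers averaged 12.04 to 12.33 in Bptf KD tumours and 11.93 to 12.28 in controls, with 0 called by limma. Their mean joins opposite signs. At an unadjusted p under 0.05, 2 were higher, C1qb and C1qc (0.40 each), and 1 lower, Mrc1 (-0.75), beside 7.65% and 5.82% of all genes. Of 5 mammary secretory markers only 2 were above the dim level, with a list mean of 5.95 to 6.09 in Bptf KD tumours and 6.21 to 7.22 in controls. The highest of these means was that of control 1. Limma called 0 of the 2, Csn3 (-1.32) and Lalba (-0.30). Both were lower at an unadjusted p under 0.05, beside 5.82% of all genes. Neutrophil markers averaged 8.44 to 8.75 in Bptf KD tumours and 7.81 to 8.68 in controls, and endothelial markers 7.27 to 7.46 in Bptf KD tumours and 7.19 to 7.82 in controls. Of the 5 endothelial markers 1 fell, Tek (-1.30, limma adjusted p = 0.0099), where 0.659% of all genes did. Tek passed the filter on dim values only through its controls. Keratinocyte markers averaged 6.45 to 6.52 in Bptf KD tumours and 6.30 to 9.43 in controls, the highest being the tumour labelled control 2.

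**Figure D5:**
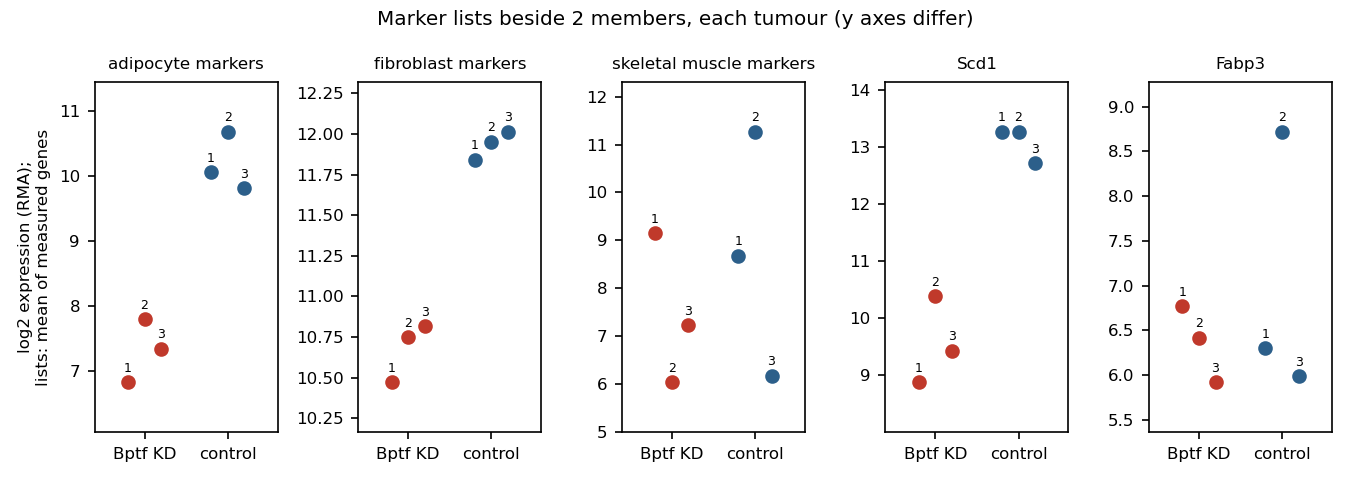
Mean log2 level of the adipocyte, fibroblast and skeletal muscle markers, and the log2 level of Scd1 and Fabp3, in each tumour (Bptf KD left, control right, points numbered by replicate). The adipocyte and fibroblast means lie lower in all 3 Bptf KD tumours, as Scd1 does, and the muscle mean and Fabp3 both peak in the tumour labelled control 2.

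Other genes of the pathway, a list of 55 that are not members, were described in the same way. Of these 47 had a probe set and 34 were tested, and 5 fell while 0 rose (limma), beside 0.659% of all genes lower and 0.151% higher. The 5 were Lpl, which frees fatty acids from lipoproteins, Cd36, which takes them up, Fabp4, the fat cell binding protein, and the droplet proteins Plin4 and Cidec. Their differences ran from -3.68 for Cidec to -2.65 for Plin4, and all but Cd36 are also on the adipocyte marker list. The median of the 34 was -0.07, beside 0.06 for all genes. Cidec passed the filter on dim values only through its controls. Of the 34, limma called 0 once either Bptf KD 1 or Bptf KD 3 was dropped, where 0.0216% and 0% of all genes were called lower. It called 2 once Bptf KD 2 was dropped (0.054% of all genes lower), 3 once control 3 was dropped (0.108%), and 8 once the tumour labelled control 2 was dropped (2.52% lower, 1.93% higher), so these counts moved with the number of calls over all genes. Ppargc1b, among those 8, also passed the filter on dim values only through its controls.

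Outside those 5, no gene of the list passed. At an unadjusted p under 0.05, 9 of the 34 were lower, the 5 included, and 2 higher, beside 5.82% and 7.65% of all genes. Lower outside the 5 were G0s2, Gpd1 (-0.97, limma adjusted p = 0.138), Slc27a3 (-0.62) and Slc2a4 (-0.40). On leaving out the tumour labelled control 2, Gpd1 differed by -0.74 and passed (limma adjusted p = 0.0448). The partner enzymes of the elongases Hsd17b12, Hacd2, Hacd3 and Tecr differed by 0.19, 0.04, -0.03 and 0.12, and Acss2, which activates acetate, by -0.18. Elovl7, an elongase of saturated chains, read 9.50, 9.93 and 9.77 in Bptf KD tumours, against 8.96, 8.95 and 8.79 in controls, without overlap (difference 0.83, limma adjusted p = 0.0638; without the tumour labelled control 2, 0.86 and 0.0344). The protein partners of Pnpla2 lay on opposite sides: Abhd5, its activator, differed by 0.62 (limma adjusted p = 0.153), and G0s2, its inhibitor, by -1.997 (limma adjusted p = 0.264). G0s2 read 6.90, 7.28 and 6.82 in Bptf KD tumours, against 8.70, 10.57 and 7.72 in controls, with the tumour labelled control 2 far above the others. Without that tumour the difference was -1.21 (limma adjusted p = 0.0677). Elovl7, Abhd5, G0s2, Gpd1, Slc27a3, Slc2a4, Hsd17b12, Hacd2, Hacd3, Tecr and Acss2 were chosen after their values were seen.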

How the data were processed

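The authors deposited log2 expression values, 1 per tumour for each of 22690 probe sets. The submitters' processing notes name RMA, without a version. The log base was taken as 2, since values span 2.98 to 15.17. Exactly 1 gene stood in GEO's annotation of 20380 probe sets. A gene with several was read from the probe set of highest mean, and the lowest 30% of means were left out (9258 genes kept). Groups were compared with limma 3.58.1 (lmFit, then eBayes, R 4.3.3) without covariates, p-values were adjusted over all genes by Benjamini-Hochberg, and calls were made at 0.05. The procedure was tested on simulated data. Arrays, 3 in each group, limit the precision. The labels call the tumours biological triplicates and do not say whether each came from a separate mouse, so p-values measure the spread between these samples. The members, lists and tests were chosen with earlier results of these data known. By rule, every member is named, and values in each tumour are given for those past the threshold and for the smallest p of each role. Per-tumour values of other genes were added after they were seen. Alternatives were no filter or a stricter one, the mean or the most variable probe set, single probe sets, median centring, a second quantile normalisation, trend and robust variance, array weights, a block for replicate number, and leaving out each tumour. Same-numbered tumours deviated together at correlations of 0.00559, 0.279 and 0.372. These cannot settle a pairing, and the main fit did not pair the tumours. No arrays held identical values. Promoters are RefSeq's on GRCm38.p6. No build is named for the values.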

Additional observations from a re-analysis of the deposited data

How the results depend on the processing

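With 9 alternatives that kept all tumours and refitted the gene values, the number of members called lower was 2 in most, 1 with the mean of all probe sets, 11 with array weights (7.45% of all genes lower, 10.7% higher) and 4 with the replicate number as a block, which added Fasn and Mgll. On single probe sets it was 1. Members called higher were 0, except 4 with array weights (Agpat3, Cebpb, Lpin2 and Plin3). Leaving out 1 tumour at a time gave 0 to 5 members lower and 0 to 8 other pathway genes, of which array weights called 10. Members called lower were 0 without Bptf KD 1 (0.0216% of all genes lower), without Bptf KD 3 (0%) or without control 3 (0.108%), and 1 without Bptf KD 2 (0.054%) or control 1 (0.616%), so calls over all genes fell away too in all of these but the last. Bptf differed by -0.88 with array weights and passed (limma adjusted p = 0.00907), and by -0.92 to -0.46 with 1 tumour left out. Signs turned with median centring for Plin2 (-0.010), with a second quantile normalisation for Plin2 (-0.0092) and Dgat1 (-0.028), and with array weights for Acsl5 (-0.17), Cebpa (0.27), Fabp3 (0.33), Me1 (0.031) and Scd2 (-0.36). With 1 tumour left out, the differences ran from -0.083 to 0.15 for Acsl4, -0.15 to 0.23 for Acsl5, -0.31 to 0.26 for Cebpa, -0.12 to 0.14 for Dgat1, -1.14 to 0.23 for Fabp3, -0.495 to 0.07 for Fads1, -0.49 to 0.072 for Fads2, -0.37 to 0.02 for Fads3, -0.085 to 0.055 for Me1, -0.077 to 0.083 for Plin2 and -0.30 to 0.34 for Scd2. Causes were not tested. Whether the replicate numbers pair these tumours could not be settled from so few arrays. Bptf KD 1 correlated best with the tumour labelled control 2 (0.108). Bptf KD 2 and Bptf KD 3 each correlated best with the control of the same number (0.279 and 0.372), although Bptf KD 3 reached 0.353 with control 1.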
